A study of Mus musculus with 8 samples.

Results

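The genes described here encode the subunits of core Mediator and of RNA polymerase II, and a protein that associates with the polymerase (Polr2m). They are the protein-coding genes of the deposited count table whose symbol is Med or Polr2 followed by a subunit number or letter (Polr2a to Polr2m), without Med12 and Med13, which belong to the kinase module of Mediator. The rule found 39 genes, 26 of Mediator and 13 of RNA polymerase II (Polr2m included), among 54532 genes in the table. The rule uses only symbols and gene type.

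The RNA came from mouse embryonic fibroblasts (primary connective-tissue cells) of wild-type genotype, and each of 4 media was represented by 2 libraries made after 4 days of culture. The groups were plain MEF medium and 3 chemical cocktails named CFAE+8, CFAE+8+MSC and CFAE+6. All cocktails held CHIR99021 (C, an inhibitor of the kinase GSK-3), Forskolin (F, an activator of adenylyl cyclase), AM580 (A, which activates retinoic acid receptor alpha) and a compound labelled EPZ04777 (E, read here as the DOT1L inhibitor EPZ004777). CFAE+8 added A-83-01 and CFAE+6 added E-616452, both inhibitors of the TGF-beta type I receptor. CFAE+8+MSC added MSC2530818, an inhibitor of the Mediator kinases CDK8 and CDK19, to CFAE+8. The labels give no doses and leave out whether both libraries of a medium came from separate cultures, so p-values measure the spread between these libraries only, which may be technical.

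Mediator is a large coactivator that carries signals from DNA-bound transcription factors to RNA polymerase II at promoters. Its head and middle modules contact the polymerase, its tail receives most transcription factors, and Med14 is the scaffold that holds the modules together. A separable kinase module, built on CDK8 or CDK19 with cyclin C, docks on this core and is the part that MSC2530818 inhibits. RNA polymerase II transcribes protein-coding genes. Some of its subunits are its own and others are shared with RNA polymerases I and III.

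Total counts per library lay between 10958430 and 11913143, and the 39 genes took 20386 to 25964 of them. Counts were scaled to counts per 1000000 (CPM) with normalization factors of 0.918 to 0.928 for MEF medium and 1.01 to 1.04 for the cocktails. Of the 39 genes, 38 passed the filter on low counts, and 33 of these had at least 100 counts in every library. The exception was Med10, a middle-module subunit, with 0 counts in all 8 libraries. Its annotated exons overlap those of the lincRNA Gm26819 over 92.81% of their length, and 3 counts would correspond to 0.254 to 0.285 CPM per library, so nothing about Med10 expression can be read from its 0 counts. Exons of 9 further genes overlap other genes over more than 10% of their length (Med7, Med19, Med20, Med21, Med26, Med31, Polr2c, Polr2i and Polr2j). The library kit does not mark strand and no strand setting for the counting is given in the labels, so the values of these 9 are uncertain. In bulk RNA, more cells of a type and more RNA per cell cannot be told apart.

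Fibroblast markers were detected in all libraries (10 of 10 genes), with a summed level of 40930 to 42274 CPM in MEF medium and 13537 to 16310 CPM in the cocktails. Proliferation markers (10 of 10 genes detected in every library) summed to 675 to 696 CPM in MEF medium, 1408 CPM in both CFAE+8 libraries, 1227 to 1230 CPM in CFAE+8+MSC and 1128 to 1138 CPM in CFAE+6. Macrophage markers (5 to 7 of 7 genes detected) summed to 161 CPM in each MEF library and to 15 to 32.4 CPM in the cocktails, with Itgam at 0 in 3 cocktail libraries and Ptprc at 0 in 1 of these. Counts of mitochondrial genes made up 1.21% to 1.24% of each MEF library and 1.96% to 2.21% of each cocktail library. Skeletal muscle markers (5 to 6 of 6 genes detected) summed to 77.5 to 80.3 CPM in MEF medium and 9.05 to 30.8 CPM in the cocktails, with Ckm at 0 in both MEF libraries and 1 CFAE+6 library. Endothelial markers (4 to 5 of 5) summed to 18.8 to 19.1 CPM in MEF medium, 25.02 to 27.1 in CFAE+8 and 52.1 to 60.8 in the other cocktails, with Emcn at 0 in 5 libraries and Pecam1 at 0 in 2. Epithelial markers (5 to 6 of 6) summed to 18.5 to 21.3 CPM in MEF medium, 10.9 to 11.1 in CFAE+8 and 37.0 to 44.9 in the other cocktails, with Epcam at 0 in 1 MEF library. Neuronal markers (4 to 6 of 6) ranged from 53.9 to 77.9 CPM over all libraries, with Rbfox3 at 0 in 7 of them. These levels moved with the contrast between cocktails and MEF medium, and all of the marker sums also with that between cocktails. Skeletal muscle markers summed to 9.05 to 10.3 CPM in CFAE+8, 28.9 to 30.8 in CFAE+8+MSC and 18.9 to 20.4 in CFAE+6. Macrophage markers summed to 31.7 to 32.4 CPM in CFAE+8 and 15 to 18.5 in the other cocktails. Fibroblast markers summed to 15226 to 15292 CPM in CFAE+8, 15816 to 16310 in CFAE+8+MSC and 13537 to 13997 in CFAE+6. Neuronal markers were higher in CFAE+8 than in the other cocktails. The part of these levels in the results below was not tested.

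Promoter sequences are shown for 5 genes whose transcripts differed between media: Med14, Med4 and Med22, which were higher in all 3 cocktails than in MEF medium, and Med16 and Polr2l, which were lower. Each is 150 bases, 5′ to 3′ on the gene's strand, from RefSeq's mouse assembly GRCm38.p6, and ends directly upstream of the RefSeq start or the deposited start, whichever lies farther upstream. That is the deposited start for Med14, Med4 and Med22, at 100, 24 and 35 bases from the RefSeq start, and the RefSeq start for Med16 and Polr2l, at 15 and 21 bases from the deposited one. The windows are chrX:12762074-12762223 (Med14, minus strand), chr14:73509875-73510024 (Med4, plus strand), chr2:26910678-26910827 (Med22, minus strand), chr10:79908939-79909088 (Med16, minus strand) and chr7:141475154-141475303 (Polr2l, minus strand). Capitals mark matches to an ETS core (CCGGAAG) and to a GC box of the SP type (GGGCGG) on either strand.
Med14: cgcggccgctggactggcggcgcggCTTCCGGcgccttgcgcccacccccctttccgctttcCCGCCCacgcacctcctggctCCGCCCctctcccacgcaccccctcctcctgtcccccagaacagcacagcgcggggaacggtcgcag
Med4: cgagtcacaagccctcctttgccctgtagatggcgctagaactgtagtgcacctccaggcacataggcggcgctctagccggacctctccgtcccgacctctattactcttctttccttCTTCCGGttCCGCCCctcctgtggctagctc
Med22: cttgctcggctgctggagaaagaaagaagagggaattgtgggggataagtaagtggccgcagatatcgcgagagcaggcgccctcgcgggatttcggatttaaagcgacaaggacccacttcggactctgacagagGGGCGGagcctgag
Med16: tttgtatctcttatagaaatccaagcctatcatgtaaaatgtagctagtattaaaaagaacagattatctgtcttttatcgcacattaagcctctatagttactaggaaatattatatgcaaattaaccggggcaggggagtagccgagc
Polr2l: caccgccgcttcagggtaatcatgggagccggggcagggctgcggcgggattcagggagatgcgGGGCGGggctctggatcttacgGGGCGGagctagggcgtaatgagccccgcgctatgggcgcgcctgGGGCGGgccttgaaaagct
The Med14 window holds 1 ETS core and 2 GC boxes, the Med4 window 1 of each, the Med22 window 1 GC box and the Polr2l window 3 GC boxes. Neither motif is present in the Med16 window. A match is a description of letters and not a mapped binding site.

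RefSeq promoter windows of 300 bases, from 250 before to 50 after the start, were at hand for 32 of the 39 genes (not for Med8, Med23, Med24, Med30, Polr2d, Polr2g and Polr2k). The median GC content of the 32 windows was 57.3%, against 52.7% over 32851 windows of all genes, and the median ratio of observed to expected CpG was 0.87 against 0.38. The Med16 window had the lowest GC content of the 32, at 39.3%. These medians show that the promoters of the set were richer in CpG than the table as a whole, for which several windows per gene were counted. On either strand, the GC box was found in 62.5% of the members' windows against 35.7% of all windows, and the ETS core in 31.2% against 8.9%. The letters GCATGCG, a form of the NRF1 motif, were found in 15.6% against 3.6%, and AAGATGG, a form of the YY1 motif, in 12.5% against 6.3%. The TATA box (TATAAA) was found in 15.6% against 13.6%, the CCAAT box (CCAAT) in 40.6% against 37.4%, the E-box (CACGTG) in 12.5% against 7.2% and the cAMP response element (TGACGTCA) in 3.1% against 1.8%. No test was made of these shares. The RefSeq start lay within 100 bases of the deposited start for 24 of the 32 genes. For Med15, counted with the ETS core and the NRF1 letters, it lay 9944 bases away.

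Levels of different genes were compared as CPM per kb of deposited exon length. The highest mean levels over the 8 libraries were those of Polr2m (113 CPM per kb), which encodes a protein that associates with the polymerase, Polr2g (64.9) and Polr2a (53.5). The lowest among the genes tested were Med18 (3.87), Med31 (3.81) and Med20 (3.36). The 25 Mediator genes tested spanned a 6.79-fold range around a median of 9.96 CPM per kb, and the 13 polymerase genes a 21.3-fold range, from Polr2k (5.30 CPM per kb) to Polr2m, around a median of 21.6. On this scale the values of genes for 1 complex were unequal. Without Polr2m, whose product associates with the polymerase, the polymerase genes ran from 5.30 (Polr2k) to 64.9 CPM per kb (Polr2g). For all genes of the set but Polr2g and Polr2d, the deposited length equals the summed exons of GENCODE M21, so a gene with long alternative exons has a level that is too low on this scale. With the M21 length of 1247 bases in place of the deposited 868, Polr2g would lie at 45.2 CPM per kb, below Polr2a.

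**Figure D1:**
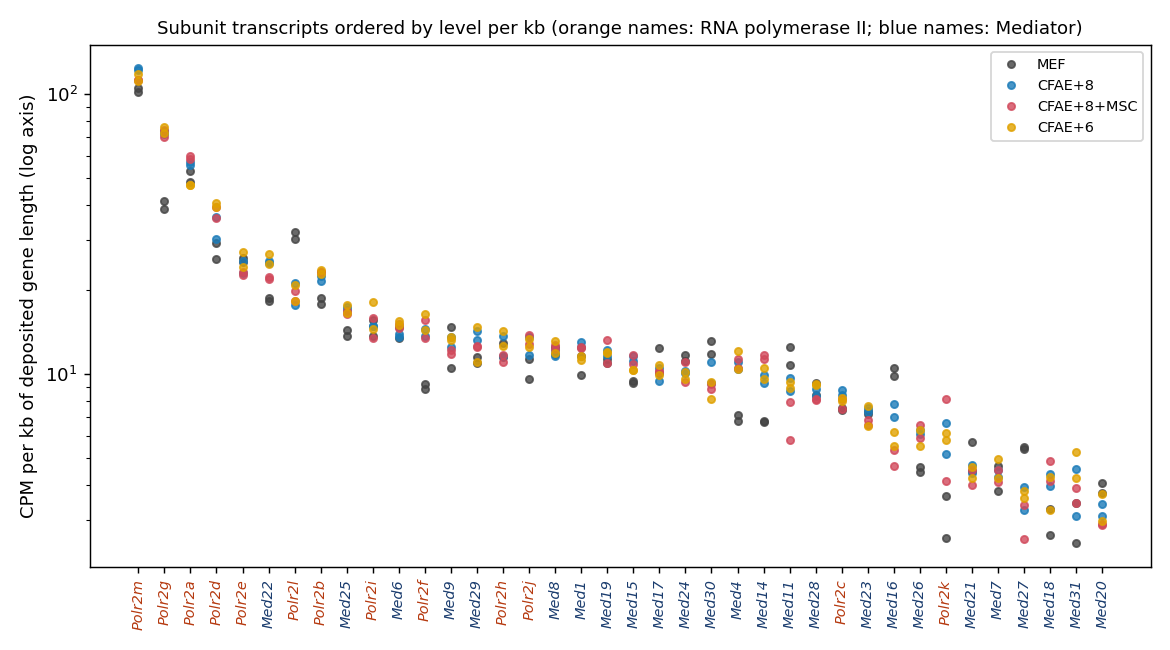
Level of each gene, in CPM per kb of deposited exon length on a log axis, as points for the 8 libraries coloured by medium, with the genes ordered by level. Polr2m, Polr2g and Polr2a have the highest mean levels, and Med18, Med31 and Med20 the lowest of the genes tested.

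The comparison of each cocktail with plain medium asked how the machinery's transcripts differ after 4 days of chemical induction. A gene was called higher or lower when its adjusted p-value in edgeR's quasi-likelihood test was under 0.05 over all 15470 genes tested, and log2 fold changes are given ± SE. In CFAE+8, 16 of the 38 genes were higher than in MEF medium and 3 were lower, while 62% of all genes tested were called (30.8% higher and 31.3% lower). In CFAE+8+MSC, 16 were higher and 6 lower, against 64.1% of all genes called (31.9% higher and 32.2% lower). In CFAE+6, 13 were higher and 5 lower, against 63.1% called (31.6% higher and 31.5% lower). The share called among the members was 50%, 57.9% and 47.4%, below that of all genes in each comparison. Their median log2 fold change was 0.12, 0.09 and 0.11, against 0.01, 0.01 and 0.02 over all genes. Without MEF replicate 1 the median in CFAE+6 was 0.17. The 3 comparisons share the same MEF libraries, so their values are not independent of each other. Without MEF replicate 1, the number higher in CFAE+8 was 10 instead of 16.

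The changes were small. Med16 in CFAE+8+MSC was the one gene of the 38 to differ from MEF medium by more than 2-fold in any cocktail. Summed over the Mediator genes, the level was 969 ± 9.69 CPM in MEF medium, and 1063 ± 13.4 CPM (CFAE+8), 1035 ± 6.65 CPM (CFAE+8+MSC) and 1043 ± 3.28 CPM (CFAE+6) with the cocktails (mean ± SD, n = 2 each). Over the polymerase genes it was 987 ± 16.5, 1126 ± 25.4, 1122 ± 21 and 1064 ± 1.25 CPM in the same order. Polr2a alone made up 359, 398, 420 and 335 CPM of these means. Summed as CPM per kb, the polymerase genes came to 353 ± 0.0488, 419 ± 12.1, 414 ± 10.7 and 417 ± 1.63. Genes called higher in every cocktail were Med4, Med14, Med15, Med22, Med25, Med26, Polr2b, Polr2d, Polr2f, Polr2g, Polr2k and Polr2m. Among these, Polr2m in CFAE+8+MSC was not called by DESeq2 (adjusted p = 0.0681) or without MEF replicate 2 (0.21), CFAE+8+MSC replicate 1 (0.09) or CFAE+8+MSC replicate 2 (0.0763), nor in CFAE+6 without MEF replicate 2 (0.0823) or CFAE+6 replicate 1 (0.0827). Med26, which links Mediator to elongation factors, was not called in CFAE+6 by DESeq2 (0.0721) or without MEF replicate 2 (0.0902) or CFAE+6 replicate 2 (0.159), nor in CFAE+8+MSC without its replicate 1 (0.0564). Called lower in every cocktail were Med16, Med27 and Polr2l. The other 10 genes called against MEF medium were called in 1 or 2 of the cocktails, and 13 genes were called in none of the 6 comparisons.

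Those 13 genes were spread over the modules: Med6, Med8 and Med17 of the head, Med7, Med9, Med19 and Med21 of the middle, Med23 of the tail, Med28 and Med29 of the head-tail border, and the polymerase genes Polr2e, Polr2h and Polr2i. Their log2 fold changes lay between -0.25 (Med21, CFAE+8+MSC against MEF medium) and 0.29 (Med29, CFAE+8 against MEF medium). Med17, the central head subunit, measured 42.6 and 52.4 CPM in MEF medium and 40.0 to 45.6 CPM in the cocktails, within or below the MEF range. Without MEF replicate 1 it was called lower in all 3 cocktails (edgeR, adjusted p = 0.0135, 0.0283 and 0.0374). Single libraries also decided Med9 in CFAE+6 (adjusted p = 0.0319 without MEF replicate 1), Med21 in CFAE+8+MSC (0.0311 without MEF replicate 2) and Med29 in CFAE+6 (0.0323 without CFAE+6 replicate 1).

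**Figure D2:**
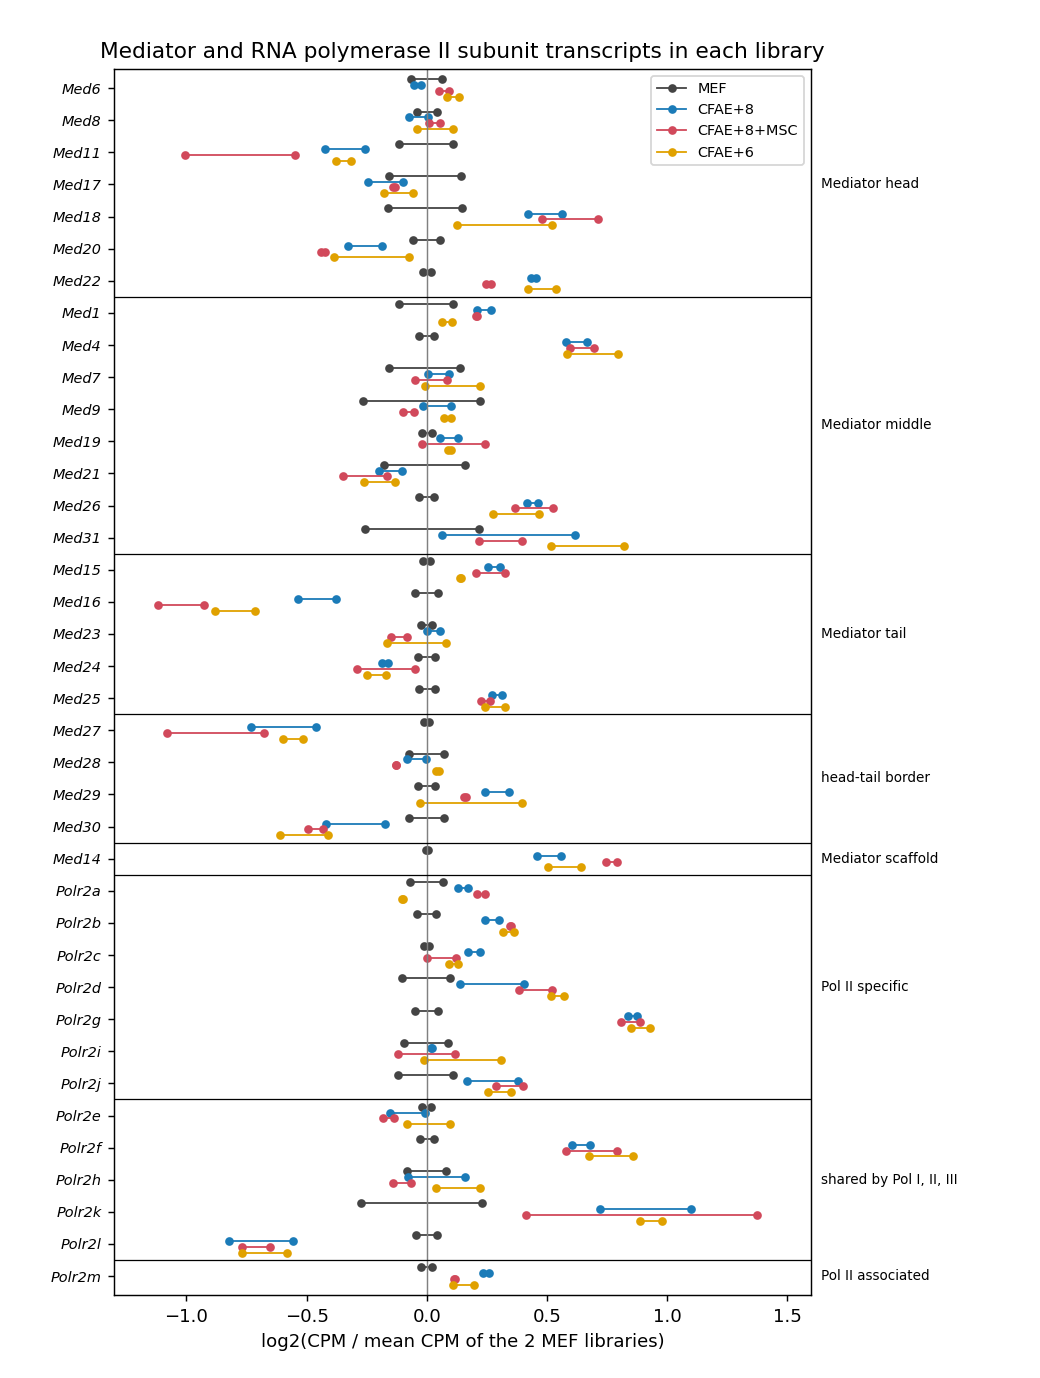
Log2 level of each gene in every library relative to its mean in MEF medium, with genes grouped by role (Mediator modules, then polymerase subunits and Polr2m) and libraries by medium. Polr2g, Polr2f, Med4 and Med14 are higher in all 6 cocktail libraries than in both MEF libraries, and Med16, Med27 and Polr2l are lower.

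Among the subunits that only RNA polymerase II carries, 5 of 7 were higher in CFAE+8, 5 of 7 in CFAE+8+MSC and 3 of 7 in CFAE+6. Of all genes, 30.8%, 31.9% and 31.6% were higher. None of the 7 was called lower, beside 31.3%, 32.2% and 31.5% of all genes. Whether the cocktails differ in these counts was not tested. Polr2g encodes a subunit of the stalk near the RNA exit channel (chr19:8793129-8798557, minus strand, mm10). It measured 36.0 and 33.7 CPM in the MEF libraries, 63.9 and 62.3 in CFAE+8, 61.0 and 64.5 in CFAE+8+MSC, and 66.4 and 62.9 in CFAE+6. Every cocktail library was above both MEF libraries, and the cocktails overlapped each other. Its log2 fold change was 0.86 ± 0.08 in CFAE+8 (edgeR, adjusted p = 1.7e-10), 0.85 ± 0.08 in CFAE+8+MSC (adjusted p = 2.3e-10) and 0.89 ± 0.08 in CFAE+6 (adjusted p = 7e-11), a rise of 1.81-, 1.80- and 1.85-fold. Polr2d, which encodes the partner of Polr2g in the stalk, rose by less, with log2 fold changes of 0.28 ± 0.11 (adjusted p = 0.027), 0.45 ± 0.11 (adjusted p = 0.00049) and 0.54 ± 0.11 (adjusted p = 5.2e-05). In CFAE+8 that call for Polr2d was lost without MEF replicate 1 (adjusted p = 0.238) or without CFAE+8 replicate 1 (adjusted p = 0.366).

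Polr2a encodes the largest subunit, which holds the active site and the repeated C-terminal domain (chr11:69733997-69758637, minus strand, mm10). It measured 342 and 376 CPM in MEF medium, 404 and 393 in CFAE+8, 415 and 425 in CFAE+8+MSC, and 334 and 335 in CFAE+6. Both libraries of CFAE+8 and of CFAE+8+MSC were above the MEF libraries, and both of CFAE+6 were below them. The rise was 0.15 ± 0.05 in CFAE+8 (edgeR, adjusted p = 0.0083) and 0.23 ± 0.05 in CFAE+8+MSC (adjusted p = 0.00017) on the log2 scale, and the difference of -0.10 ± 0.05 in CFAE+6 was not called (adjusted p = 0.072). The call in CFAE+8+MSC held when any 1 library was left out. That in CFAE+8 was lost without MEF replicate 1 (adjusted p = 0.172) or CFAE+8 replicate 1 (adjusted p = 0.076), and in CFAE+6 Polr2a was called lower without MEF replicate 1 (adjusted p = 0.012). Polr2b, the second-largest subunit, measured 82.8 and 87.3 CPM in MEF medium, 105 and 101 in CFAE+8, 108 in both CFAE+8+MSC libraries, and 109 and 106 in CFAE+6. It rose in all 3 cocktails, by 0.27 ± 0.06, 0.35 ± 0.06 and 0.34 ± 0.06 (edgeR, adjusted p = 0.0004, 1.7e-05 and 2.4e-05). Polr2c and Polr2j, whose products pair during assembly of the enzyme, were each called higher in 1 cocktail, and both are among the genes with overlapping exons. Polr2c in CFAE+8 (0.20 ± 0.08, adjusted p = 0.046) was not called with a replicate block (0.0518), by DESeq2 (0.162) or without any 1 of the 4 libraries compared (0.0803 to 0.182). Polr2j in CFAE+8+MSC (0.34 ± 0.15, adjusted p = 0.049) was not called by DESeq2 (0.146) or without MEF replicate 1 (0.259), CFAE+8+MSC replicate 1 (0.184) or CFAE+8+MSC replicate 2 (0.0553).

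Of the subunits shared with polymerases I and III, 2 of 5 were higher and 1 of 5 was lower in each cocktail. The shares of all genes were 30.8% to 31.9% higher and 31.3% to 32.2% lower. Polr2f measured 23.9 and 22.9 CPM in MEF medium, 37.5 and 35.5 in CFAE+8, 34.9 and 40.4 in CFAE+8+MSC, and 37.4 and 42.4 in CFAE+6, with log2 fold changes of 0.64, 0.69 and 0.77 (SE 0.10 each, edgeR, adjusted p = 4.1e-06, 1.4e-06 and 1.7e-07). Polr2l, a small zinc-binding subunit, measured 52.9 and 49.9 CPM in MEF medium and 34.9 and 29.1, 30.1 and 32.7, and 30.1 and 34.3 in the cocktails in the same order. No cocktail library of Polr2l reached either MEF library, and the log2 fold changes were -0.68, -0.71 and -0.67 (SE 0.10 each, edgeR, adjusted p = 4.8e-07, 2.8e-07 and 6.5e-07). Polr2k, another small zinc-binding subunit, lay at 1.62 and 2.29 CPM in MEF medium and between 2.60 and 5.06 CPM in the cocktails. Its log2 fold changes of 0.92, 0.96 and 0.93 (SE 0.34 each) were the largest rises of the set and among the least precise (adjusted p = 0.022, 0.016 and 0.02), and without MEF replicate 1 none of the 3 was called (adjusted p = 0.165, 0.136 and 0.155). Leaving out CFAE+8 replicate 1 (adjusted p = 0.15), CFAE+8+MSC replicate 2 (0.406) or CFAE+6 replicate 2 (0.0666) also ended the call in that cocktail.

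In Mediator, 8 of 25 genes tested were higher and 2 lower in CFAE+8, 8 and 5 in CFAE+8+MSC, and 7 and 4 in CFAE+6. In the same order, 30.8%, 31.9% and 31.6% of all genes tested were higher and 31.3%, 32.2% and 31.5% lower. Med14, the scaffold (chrX:12675369-12762073, minus strand, mm10), measured 59.3 and 58.9 CPM in MEF medium, 87.1 and 81.3 in CFAE+8, 102 and 99.1 in CFAE+8+MSC, and 92.2 and 83.9 in CFAE+6. All cocktail libraries were above the MEF libraries, and the CFAE+8+MSC libraries were the highest. It rose by 0.51 ± 0.07, 0.77 ± 0.07 and 0.57 ± 0.07 on the log2 scale (edgeR, adjusted p = 2.8e-07, 6.8e-11 and 3e-08). In the middle module, Med4 measured 22.8 and 23.8 CPM in MEF medium and 37.0 and 34.9, 37.8 and 35.3, and 34.9 and 40.5 in the cocktails, a rise of 0.62, 0.65 and 0.69 (SE 0.10 each, adjusted p = 5.4e-06, 2.9e-06 and 9e-07). The cocktail libraries of Med4 overlapped one another and all lay above both MEF libraries. Med1, the subunit that nuclear receptors bind, measured 86.9 and 102 CPM in MEF medium, 109 and 113 in CFAE+8, 109 in both CFAE+8+MSC libraries, and 101 and 98.5 in CFAE+6. Its rises of 0.24 ± 0.07 in CFAE+8 and 0.20 ± 0.07 in CFAE+8+MSC (edgeR, adjusted p = 0.0029 and 0.0093) were lost without MEF replicate 1 (adjusted p = 0.131 and 0.243), and the difference of 0.08 ± 0.07 in CFAE+6 was not called (adjusted p = 0.29; 0.0321 without MEF replicate 2).

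Of the 5 tail genes, 2 were higher in each cocktail, and 1, 1 and 2 were lower in CFAE+8, CFAE+8+MSC and CFAE+6. The shares of all genes were 30.8% to 31.9% higher and 31.3% to 32.2% lower. Med15 and Med25, tail subunits that bind activators, were higher in every cocktail, with log2 fold changes of 0.14 to 0.29. For Med15 in CFAE+6, leaving out any 1 of the MEF or CFAE+6 libraries ended the call (adjusted p = 0.0705 to 0.176). Med16 (chr10:79894708-79908923, minus strand, mm10), which joins the tail to the rest of the complex, was lower. It measured 45.8 and 49.0 CPM in MEF medium, 36.5 and 32.7 in CFAE+8, 21.8 and 25 in CFAE+8+MSC, and 25.7 and 28.8 in CFAE+6. All cocktail libraries were below the MEF libraries, and CFAE+8 lay between MEF medium and the other cocktails. The log2 fold changes were -0.46 ± 0.10, -1.02 ± 0.10 and -0.80 ± 0.10 (edgeR, adjusted p = 0.00016, 6.1e-10 and 4.8e-08). Med24 was called in CFAE+6, at -0.21 ± 0.08 (adjusted p = 0.019), and not without MEF replicate 1 (adjusted p = 0.143) or CFAE+6 replicate 1 (adjusted p = 0.131). In CFAE+8 its log2 fold change was -0.17 ± 0.08 (adjusted p = 0.0502), and it was called there under 7 alternatives, among them the replicate block (0.0472) and leaving out either CFAE+6 library or either CFAE+8+MSC library (0.0398 to 0.0481). In CFAE+8+MSC it was called without its replicate 1 (adjusted p = 0.00804).

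At the border between head and tail, none of the 4 subunits was called higher, beside 30.8% to 31.9% of all genes. Med27 measured 17.9 and 18.1 CPM in MEF medium and 13.1 and 10.9, 11.3 and 8.5, and 12.6 and 11.9 in the cocktails, with log2 fold changes of -0.59 ± 0.15, -0.86 ± 0.16 and -0.56 ± 0.15 (edgeR, adjusted p = 0.0014, 2.5e-05 and 0.0024). Every cocktail library was below both MEF libraries. Med30, at 15.5 and 14.0 CPM in MEF medium, was lower in CFAE+8+MSC (10.5 and 10.9 CPM; -0.46 ± 0.16, adjusted p = 0.012) and in CFAE+6 (11.1 and 9.67 CPM; -0.51 ± 0.16, adjusted p = 0.0064). Both calls were lost without MEF replicate 1 (adjusted p = 0.0906 and 0.0586). Leaving out CFAE+8+MSC replicate 1 (adjusted p = 0.0625) or CFAE+6 replicate 2 (adjusted p = 0.0671) ended the call in that cocktail as well.

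Of the 7 head subunits, 2 were higher and 0 lower in CFAE+8, 2 and 2 in CFAE+8+MSC, and 1 and 0 in CFAE+6. Among all genes tested, 30.8%, 31.9% and 31.6% were higher and 31.3%, 32.2% and 31.5% lower. Med22 measured 67.5 and 65.9 CPM in MEF medium, 91.3 and 90 in CFAE+8, 79.2 and 80.2 in CFAE+8+MSC, and 89.4 and 96.9 in CFAE+6, rising by 0.44, 0.26 and 0.48 (SE 0.07 each, edgeR, adjusted p = 1.2e-06, 0.0015 and 2.8e-07). Med11, whose product pairs with that of Med22 in the head, measured 11.2 and 13.1 CPM in MEF medium and 8.31 and 6.06 CPM in CFAE+8+MSC, where it fell by 0.76 ± 0.18 on the log2 scale (adjusted p = 0.00071). The values of these partners thus moved to opposite sides in CFAE+8+MSC. In CFAE+8 and CFAE+6 the log2 fold changes of Med11 were -0.34 ± 0.18 and -0.35 ± 0.18 and were not called (adjusted p = 0.095 and 0.086). Med18, at 5.32 and 6.60 CPM in MEF medium, was higher in CFAE+8 (8.79 and 7.97 CPM; 0.49 ± 0.21, adjusted p = 0.039) and in CFAE+8+MSC (8.31 and 9.77 CPM; 0.60 ± 0.20, adjusted p = 0.012). DESeq2 called neither (adjusted p = 0.132 and 0.0544), nor did edgeR without MEF replicate 1 (0.242 and 0.116), and leaving out either CFAE+8 library (0.163 and 0.0573) or CFAE+8+MSC replicate 2 (0.0941) ended the call in that cocktail. Med20, a head gene with overlapping exons, was lower in CFAE+8+MSC by 0.43 (adjusted p = 0.002). Med31, a middle-module gene at 5.99 and 4.31 CPM in MEF medium and 9.08 and 7.36 CPM in CFAE+6, was higher there by 0.68 ± 0.23 (adjusted p = 0.011). That call was lost without MEF replicate 2 (adjusted p = 0.167) or CFAE+6 replicate 1 (adjusted p = 0.102), and Med31 also has overlapping exons.

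**Figure D3:**
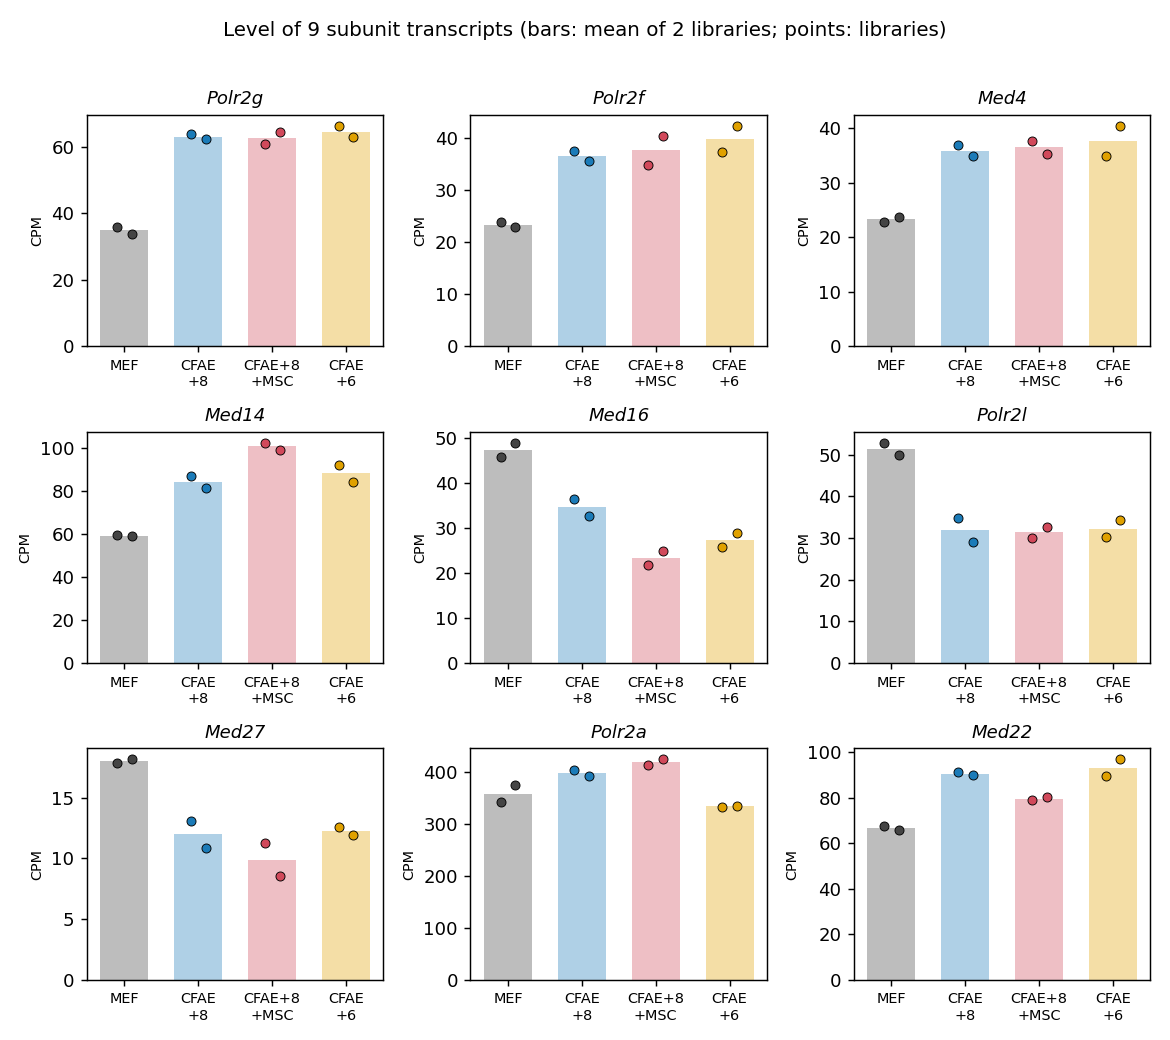
CPM of selected genes in each library, as 1 point per library with the mean of the 2 libraries of each medium as a bar. Polr2g and Med14 are higher and Polr2l and Med16 lower in all 6 cocktail libraries than in both MEF libraries, while Polr2a is lowest in CFAE+6 (334 and 335 CPM).

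CFAE+8+MSC and CFAE+8 were compared to see which of these transcripts differ once the CDK8/19 inhibitor is added. Of the 38 genes, 1 was higher and 3 were lower, 10.5% in all, while 29.3% of all genes tested were called (15.6% higher and 13.8% lower). The median log2 fold change of the 38 was -0.03, and -0.065 without CFAE+8+MSC replicate 2. Med14 was higher, at 0.26 ± 0.07 or 1.2-fold (edgeR, adjusted p = 0.0031), and both of its CFAE+8+MSC libraries were above both CFAE+8 libraries; without CFAE+8 replicate 2 it was not called (adjusted p = 0.0741). Med16 was lower, at -0.57 ± 0.10 or 1.48-fold (adjusted p = 0.0001), with no overlap between the groups, and this call held under all 15 alternatives that were run. Med22 (-0.19 ± 0.06, adjusted p = 0.03) and Polr2m (-0.13 ± 0.05, adjusted p = 0.042) were lower by smaller amounts. Polr2m measured 294 and 299 CPM in CFAE+8 and 271 in both CFAE+8+MSC libraries. Leaving out any 1 of the 4 libraries ended the call of Med22 (adjusted p = 0.1 to 0.167) and of Polr2m (adjusted p = 0.134 to 0.235), and DESeq2 called neither. Of the 34 genes not called, 31 had a 95% interval of the difference within 1.5-fold in either direction, and the intervals of Med11, Med27 and Polr2k were wider. Med11 was called without CFAE+8+MSC replicate 1 (adjusted p = 0.0368).

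The comparison of CFAE+6 with CFAE+8 set E-616452 against A-83-01 with the other compounds in common, at doses the labels do not give. Here 0 genes were higher and 2 were lower, or 5.26%, against 26.6% of all genes called (14.3% higher and 12.3% lower). DESeq2 also called 0 higher. At an unadjusted p under 0.05 there were 5 genes in either direction, of which 1, Polr2d, was higher. Polr2a was lower in CFAE+6, at -0.25 ± 0.05 or 1.19-fold (edgeR, adjusted p = 0.0002), and the 334 and 335 CPM of CFAE+6 lay under the 404 and 393 CPM of CFAE+8. Med16 was lower at -0.34 ± 0.10 or 1.27-fold (adjusted p = 0.013), a call that was lost under DESeq2 (adjusted p = 0.071), without CFAE+8 replicate 1 (0.176) and without CFAE+6 replicate 1 (0.141). Polr2d was higher by 0.27 ± 0.10, just above the threshold (adjusted p = 0.052), and was called without CFAE+8 replicate 1 (adjusted p = 0.0205) or without either CFAE+8+MSC library (0.0471 and 0.0466). Of the 36 genes not called, 34 had a 95% interval within 1.5-fold, and Med31 and Polr2k did not.

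Between CFAE+8+MSC and CFAE+6, which differ in both the receptor inhibitor and MSC2530818, 1 gene was higher and 1 lower, or 5.26%, against 10.5% of all genes called (6.21% higher and 4.27% lower). Polr2a was higher in CFAE+8+MSC, at 0.33 ± 0.05 or 1.25-fold (edgeR, adjusted p = 1.9e-05), with no overlap between the libraries. Med22 was lower at -0.23 ± 0.06 (adjusted p = 0.023), and was not called by DESeq2 (adjusted p = 0.113) or without CFAE+8+MSC replicate 1 (0.138), CFAE+8+MSC replicate 2 (0.0894) or CFAE+6 replicate 2 (0.249). Med14 differed by 0.19 ± 0.07 and was not called (adjusted p = 0.056; 0.0245 without CFAE+6 replicate 1). Med16, at -0.22 ± 0.11, was not called either (adjusted p = 0.21). The 3 comparisons among cocktails share libraries, so their values are given side by side and not as separate support for one another.

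**Figure D4:**
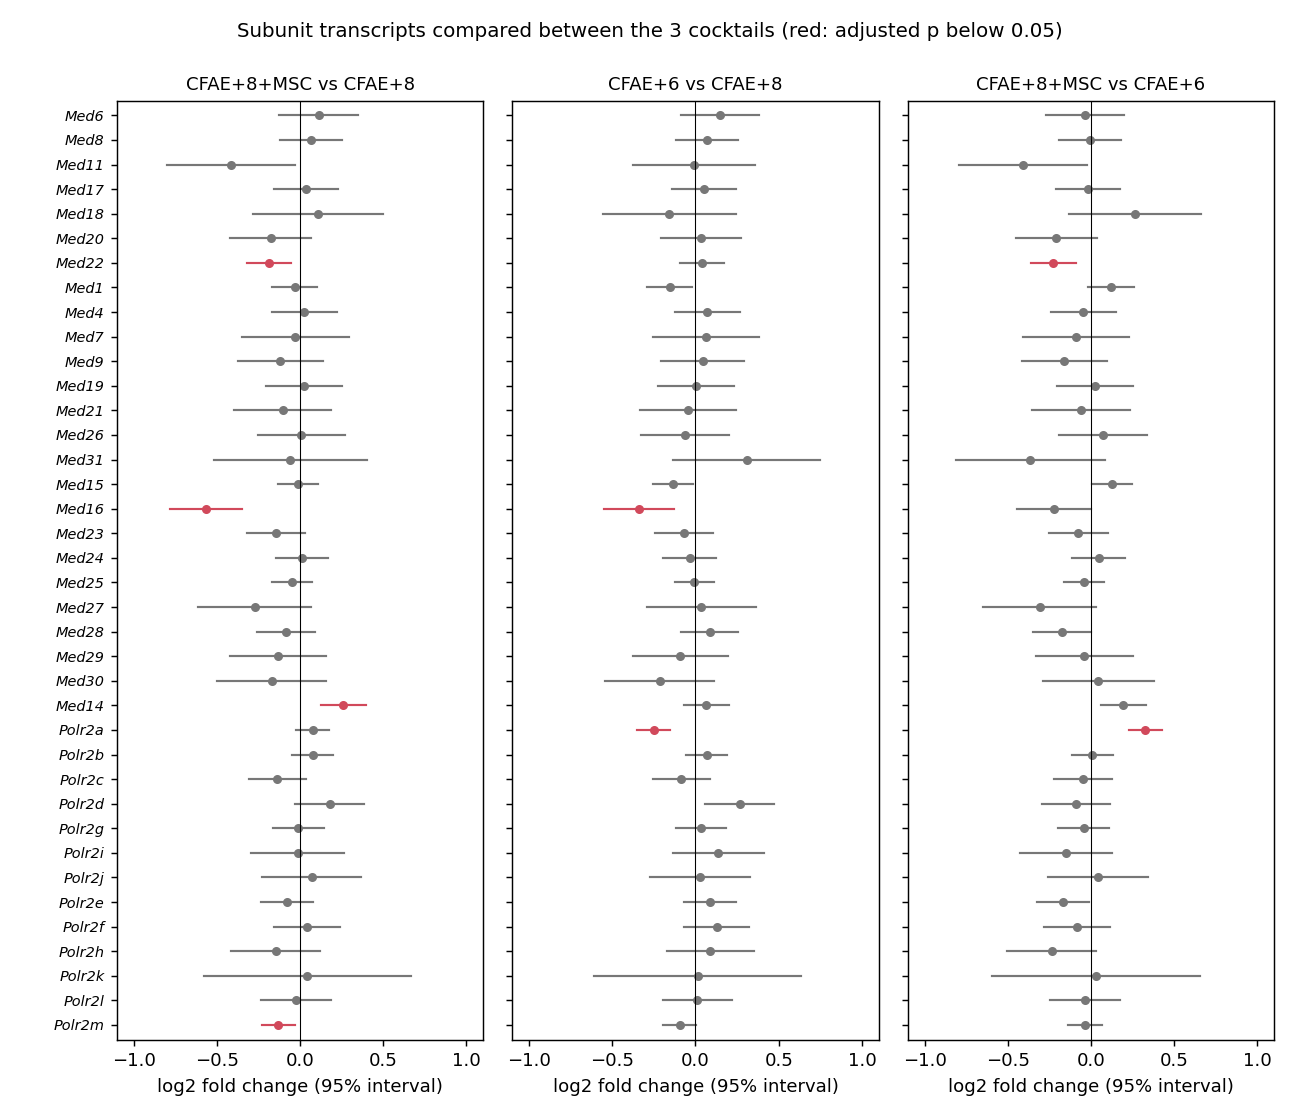
Log2 fold change of the 38 genes tested between cocktails, as points with 95% intervals and 1 panel per comparison, called genes marked. Med16 lies farthest below 0 with CDK8/19 inhibitor against CFAE+8 (-0.57), and Polr2a lies above 0 in CFAE+8+MSC against CFAE+6 (0.33).

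Genes around this machinery were read from lists of the same pathway, whose counts stand beside the 62% of all genes called in CFAE+8 against MEF medium, the 29.3% called in CFAE+8+MSC against CFAE+8 and the 26.6% called in CFAE+6 against CFAE+8. Of the 7 kinase-module genes, 1 was higher and 2 lower in CFAE+8 than in MEF medium, and 0 higher and 3 lower in CFAE+8+MSC than in CFAE+8. Med13l, a paralogue of the module's docking subunit, fell from 151 ± 1.89 CPM in MEF medium to 91.8 ± 0.298 in CFAE+8 and 77.2 ± 6.56 in CFAE+8+MSC (mean ± SD, n = 2; edgeR, adjusted p = 4.6e-11 against MEF medium and 0.0046 between the cocktails). Cdk19, 1 of the kinases that MSC2530818 inhibits, was lower with the inhibitor (-0.34 ± 0.12, adjusted p = 0.032), as was Med12 (-0.18, adjusted p = 0.046; named after its value was seen). Med13l, Cdk19 and Med12 were also lower in CFAE+6 than in CFAE+8, without that inhibitor (-0.33, -0.39 and -0.20, adjusted p = 0.00033, 0.016 and 0.031), and the comparisons share the CFAE+8 libraries. Transcripts of Cdk8 differed by 0.18 ± 0.07 (adjusted p = 0.061) and those of Ccnc, which encodes cyclin C, by 0.04 ± 0.13 (adjusted p = 0.86), and neither was called. Med12l rose in CFAE+8 against MEF medium by 1.01 ± 0.23 (adjusted p = 0.00037), with exons that overlap other genes.

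Of 8 genes for subunits of polymerase I alone or shared with polymerase III, 4 were higher and 1 lower in CFAE+8 than in MEF medium (62.5%, against 62% of all genes), 4 were higher and 0 lower with the CDK8/19 inhibitor than without, and 3 were higher and 0 lower in CFAE+6 than in CFAE+8. Polr1b, the second-largest subunit of polymerase I, was higher in both comparisons (0.51 ± 0.11, adjusted p = 0.00028, and 0.49 ± 0.10, adjusted p = 0.00042). Polr1e was lower in CFAE+8 than in MEF medium (-0.45 ± 0.14, adjusted p = 0.0053) and higher with the inhibitor (0.53 ± 0.13, adjusted p = 0.0029). Against CFAE+8, CFAE+6 also had more Polr1b (0.30 ± 0.10, adjusted p = 0.028) and Polr1e (0.56 ± 0.13, adjusted p = 0.0019). Polr1a, the largest subunit, was higher in CFAE+8 than in MEF medium by 0.55 ± 0.06 (adjusted p = 9e-09). Of 11 polymerase III genes, 2 were higher and 1 lower in each of the same comparisons. Polr3g and Polr3gl encode alternative forms of 1 subunit. With the inhibitor, Polr3g was higher (0.50 ± 0.14, adjusted p = 0.0078) and Polr3gl lower (-0.80 ± 0.18, adjusted p = 0.00096). In CFAE+6 against CFAE+8 the values were 0.41 ± 0.14 for Polr3g (adjusted p = 0.033) and -0.37 ± 0.17 for Polr3gl (adjusted p = 0.11, not called).

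Of 30 general transcription factors, which place the polymerase at promoters, 10 were higher and 7 lower in CFAE+8 than in MEF medium (56.7%, against 62% of all genes), and 1 was higher and 1 lower with the inhibitor (6.67%, against 29.3%). Ercc3, the translocase of TFIIH, fell from 72.2 ± 1.22 to 43.5 ± 2.09 CPM in CFAE+8 (edgeR, adjusted p = 4.4e-09), and Gtf2h1, another TFIIH subunit, was lower by 0.63 ± 0.07 on the log2 scale (adjusted p = 1.6e-08). With the inhibitor, Gtf2e1 was higher (0.33 ± 0.11, adjusted p = 0.019) and Mnat1 lower (-0.38 ± 0.13, adjusted p = 0.024). Without the inhibitor, in CFAE+6 against CFAE+8, 1 of the 30 was likewise higher and 1 lower (6.67%, against 26.6%). Gtf2e1 and Mnat1 were not called there. Among pausing and elongation factors, 10 were higher and 5 lower of 23 against MEF medium, and 4 higher and 4 lower with the inhibitor. Mllt3, a subunit of the super elongation complex, rose from 31.2 ± 1.83 CPM in MEF medium to 88.9 ± 5.73 in CFAE+8 and 149 ± 3.13 in CFAE+8+MSC (adjusted p = 6.5e-17 and 6.9e-11 for the 2 steps). Hexim1, which holds the elongation kinase P-TEFb inactive, was lower with the inhibitor (-0.43 ± 0.07, adjusted p = 1.4e-05), and Mllt1 was higher in CFAE+8 than in MEF medium (0.56 ± 0.06, adjusted p = 1.1e-08). Of 11 genes for assembly factors and phosphatases of the polymerase's C-terminal domain, 2 were higher and 4 lower against MEF medium, and 0 higher and 2 lower with the inhibitor, Ctdsp1 (-0.50 ± 0.07, adjusted p = 5.9e-07) and Ctdsp2 (-0.38 ± 0.05, adjusted p = 2.7e-06). In CFAE+6 against CFAE+8, without the inhibitor, Mllt3 was likewise higher (0.89 ± 0.06, adjusted p = 2.2e-12), and Hexim1, Ctdsp1 and Ctdsp2 were lower (-0.31, -0.37 and -0.38, adjusted p = 0.001, 6.7e-05 and 4.2e-06). Ssu72, a phosphatase gene with overlapping exons, was lower in CFAE+8 than in MEF medium (-0.80 ± 0.08, adjusted p = 5.7e-10).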

How the data were processed

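RNA-seq libraries of total RNA from 4 media, 2 libraries each, were analysed from 1 table of raw counts per gene that the authors deposited. Per the submitters' processing notes, the counts come from featureCounts (Subread) on mm10, with DESeq2 also named. Not given in the sources used here are the aligner, the annotation release and how strand and multiply mapped reads were handled. Exon overlaps were computed from GENCODE M21, in which 37 of the 39 genes have the deposited start and end.

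Counts were filtered with filterByExpr and scaled by TMM, and 1 model with all 8 libraries (4 residual degrees of freedom) was tested in edgeR 4.0.16 (R 4.3.3) by the quasi-likelihood test, with Benjamini-Hochberg adjustment over all 15470 genes tested and a threshold of 0.05. The model was also run on simulated counts with the same spread for all genes and 200 genes changed in CFAE+8+MSC only. That setting is simpler than these data, so it does not give the error rate here. The SE is the log2 fold change divided by the square root of F. The alternatives were DESeq2 1.42.0, 2 other scalings, no filter, only the groups compared, a replicate block, a test against a 1.2-fold change and leaving out each library. The members and lists were chosen with earlier results of these data known. Full statistics are given for up to 5 called genes with the largest rise and fall in each comparison and for Polr2a, Polr2b, Med1 and Med14. Outside the members, the 2 genes of each list with the smallest adjusted p in CFAE+8 against MEF medium and in CFAE+8+MSC against CFAE+8 are named, with Cdk8, Cdk19 and Ccnc.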

Additional observations from a re-analysis of the deposited data

How the results depend on the processing

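Over all alternatives, 3270 values of single genes kept their side of the threshold, 117 calls were lost and 33 were gained. No call changed direction. The sign of genes called neither in the main fit nor under the alternative was not counted, and such genes are among the 3270. Called under every alternative were 8 of 19 genes in CFAE+8 against MEF medium, 10 of 22 in CFAE+8+MSC, 9 of 18 in CFAE+6, and 1 of 4 (Med16) in CFAE+8+MSC against CFAE+8. For CFAE+6 against CFAE+8 this was 0 of 2, and for CFAE+8+MSC against CFAE+6 also 0 of 2. The test against a 1.2-fold change called 6, 7 and 8 genes higher in the 3 cocktails against MEF medium. It called 0 higher and 1 lower in CFAE+8+MSC against CFAE+8, 0 lower in CFAE+6 against CFAE+8, and 0 higher and 0 lower in CFAE+8+MSC against CFAE+6. DESeq2 called 1, 1 and 0 genes lower in these 3 comparisons. With DESeq2's size factors, or with only the groups compared, 5 genes were lower in CFAE+8 than in MEF medium. In CFAE+6 against CFAE+8, 1 gene (Polr2d) was higher with DESeq2's size factors, with upper-quartile factors and with only the groups compared.

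Leaving out 1 library at a time gave 10 to 16 higher and 3 to 5 lower in CFAE+8 against MEF medium, 12 to 16 and 6 to 7 in CFAE+8+MSC, and 10 to 13 and 4 to 5 in CFAE+6. Between cocktails it gave 0 to 1 higher and 1 to 3 lower (CFAE+8+MSC against CFAE+8), 0 to 1 and 1 to 2 (CFAE+6 against CFAE+8), and 1 to 2 and 0 to 1 (CFAE+8+MSC against CFAE+6). A group left with 1 library was assumed to vary like the others. The median log2 fold change of CFAE+6 against CFAE+8 went from 0.0457 without CFAE+8 replicate 1 to -0.0249 without CFAE+8 replicate 2, and was 0.03 with all libraries. The cause of these differences was not tested. Replicate numbers did not pair the libraries (correlations of -0.05 to 0.10 between the differences of replicates 1 and 2 of different media). With a replicate block, 2 genes were higher in CFAE+8+MSC than in CFAE+6 in place of 1 (Polr2a and Med14), and the other counts stayed within 1.5 times. Leaving out genes with exon overlaps over 10%, an alternative chosen after seeing the data, gave 14 higher and 3 lower, 14 and 5, and 11 and 5 against MEF medium, and left the counts between cocktails at 1 and 3, 0 and 2, and 1 and 1. At this depth, small differences in the 5 genes with under 100 counts in some library were not detectable.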
